A study of Mus musculus with 8 samples.

Results

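The cluster of miR-302 and miR-367 was taken as the 10 mature miRNAs that derive from its 5 hairpins, mmu-miR-302a-3p, mmu-miR-302a-5p, mmu-miR-302b-3p, mmu-miR-302b-5p, mmu-miR-302c-3p, mmu-miR-302c-5p, mmu-miR-302d-3p, mmu-miR-302d-5p, mmu-miR-367-3p and mmu-miR-367-5p. The species prefix is left out below. They were found by name and are 10 of the 1978 mature miRNAs listed in the deposited tables. All 10 were listed in the P19 table, which holds 696 miRNAs, and in the tables of the C2C12 hairpin libraries, which hold 1978 miRNAs. None was among the 605 miRNAs listed for the ATF4 experiment. The study sequenced small RNA from 8 mouse cell cultures, with 1 library for each condition. P19, a line of mouse embryonal carcinoma cells, carried either a negative control hairpin RNA (shNC) or a hairpin RNA against Perk (shPerk). C2C12, a line of mouse skeletal myoblasts, carried the same kinds of hairpin and was collected at day 0 or at day 3 of differentiation, and another pair of C2C12 cultures carried an empty vector or overexpressed ATF4. The C2C12 hairpin lines were made by lentiviral transduction and puromycin selection. The labels of the P19 libraries give neither a day nor an induction state, and the Perk mRNA is not measured by these libraries. As there was 1 library for each condition, differences between conditions were not tested, no p-value is given, and a difference between libraries carries no replicate error.

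PERK is a kinase of the endoplasmic reticulum membrane that senses unfolded proteins and slows translation, and ATF4 is a transcription factor made more when PERK is active. The hairpins of miR-302 and miR-367 are cut from a common primary transcript that is made in pluripotent cells, where OCT4 and SOX2 activate it, and that is shut off as cells differentiate. miR-302b-3p and miR-302d-3p share their seed, the bases at the 5′ end that pair with target mRNAs, with miRNAs of the miR-290 to miR-295 cluster, the other miRNA cluster typical of mouse embryonic stem cells. miRNAs with this seed repress inhibitors of the cell cycle such as Cdkn1a, and the cluster of miR-302 and miR-367 has been used to support reprogramming of somatic cells.

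The 5 hairpins lay within 580 bp of chromosome 3 on the plus strand of GRCm38, chr3:127545228-127545807. Mir302b came first (chr3:127545228-127545301), followed by Mir302c (chr3:127545363-127545430), Mir302a (chr3:127545496-127545564), Mir302d (chr3:127545624-127545689) and Mir367 (chr3:127545733-127545807), with gaps of 43 to 65 bp between neighbours. All of them lay opposite to Larp7, in the intron between exons 8 and 9 of its 13-exon transcript Larp7-201 (intron at chr3:127544279-127545825), and no exon of the 4 annotated Larp7 transcripts overlapped the cluster. Mature sequences of 9 of the 10 arms were matched in the RefSeq table of build GRCm38.p6. They are printed 5′ to 3′ with the seed, bases 2 to 8, in capitals, because the seeds set which arms can be grouped by likely targets. The matched 3p arms were the following.
miR-302b-3p: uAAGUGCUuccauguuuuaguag
miR-302d-3p: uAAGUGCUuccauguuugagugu
miR-302c-3p: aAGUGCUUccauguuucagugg
miR-367-3p: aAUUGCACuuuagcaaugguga
The 5p arms of the same hairpins, which pair with the 3p arms in the stem, were the following.
miR-302a-5p: aCUUAAACgugguuguacuugc
miR-302b-5p: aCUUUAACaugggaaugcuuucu
miR-302c-5p: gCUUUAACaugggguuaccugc
miR-302d-5p: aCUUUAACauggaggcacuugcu
miR-367-5p: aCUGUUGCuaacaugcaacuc
miR-302b-3p and miR-302d-3p had the seed AAGUGCU. miR-302c-3p is annotated to start 1 base later, so its bases 2 to 8 read AGUGCUU although it shares a stretch of 16 bases with each of them. miR-302b-3p and miR-302d-3p share the stretch UAAGUGCUUCCAUGUUU of 17 bases at their 5′ ends and differ only towards the 3′ end. The rule by which reads that match several miRNAs were counted is not given in the sources used here, so the split of reads among the miR-302 3p arms is less certain than their sum. Of the 5p arms, those of miR-302b, miR-302c and miR-302d had the seed CUUUAAC, and miR-302a-5p had CUUAAAC and shared at most 6 consecutive bases with any of them.

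The cluster held the highest miRNA of both P19 libraries and had 1 read in all 4 C2C12 hairpin libraries together. In the P19 shNC library the 10 arms together had 170460 RPM (reads-per-million, relative to the reads assigned to miRNAs), which is 17.1% of the listed values. In the P19 shPerk library they had 428356 RPM, or 42.8%. miR-302b-3p ranked 1 of 696 in both libraries, with 76522 RPM in shNC cells and 180818 RPM in shPerk cells. The 3 highest miRNAs of the shPerk library, miR-302b-3p, miR-302d-3p and miR-302a-3p, were all of the cluster, whereas in the shNC library miR-292a-5p, of the miR-290 to miR-295 cluster, ranked 2 and miR-302d-3p ranked 4. Without miR-302b-3p, the other 9 members still took 9.40% of the shNC library and 24.8% of the shPerk library.

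**Figure D1:**
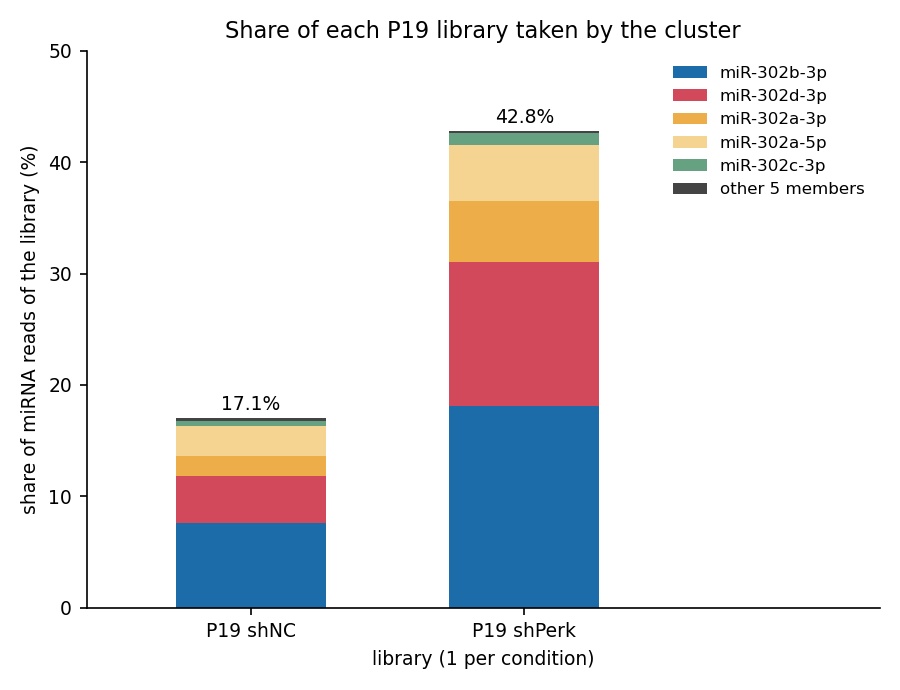
Stacked bars show the share of all listed miRNA values, in percent, taken by the cluster in the P19 shNC and the P19 shPerk library, 1 library each and without error bars. The total was 17.1% in shNC cells and 42.8% in shPerk cells, and miR-302b-3p and miR-302d-3p made up most of it in both.

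Among the main arms, miR-302d-3p had 42087 RPM in the shNC library and 129217 RPM in the shPerk library. miR-302a-3p had 17713 and 54730 RPM in the same order. miR-302c-3p, with 4502 and 10616 RPM, was lower than these by read number in both libraries. The 3p arm of miR-367, which belongs to the seed family of miR-25 and miR-92a and not to that of miR-302, was far less abundant, at 129 RPM in shNC and 269 RPM in shPerk cells, although its hairpin lies only 43 bp from Mir302d. Ligation and amplification efficiency differ between small RNA sequences, so an order of arms is an order of read numbers.

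The 5p arms covered a wide range. miR-302a-5p had 27182 RPM in the shNC library, above its own 3p arm, and 50322.5 RPM in the shPerk library, below it. miR-302c-5p had 1381 and 1295 RPM in shNC and shPerk cells. miR-302d-5p had 640 and 710 RPM in the same libraries. These minor arms were close to level between the libraries on the deposited scale. miR-302b-5p had 302.3 and 375 RPM, and miR-367-5p had 1.01 and 2.92 RPM, just above the limit of 1 RPM under which the authors listed values at 0. By read number the order of the arms in the shNC library was miR-302b-3p, miR-302d-3p, miR-302a-5p, miR-302a-3p, miR-302c-3p, miR-302c-5p, miR-302d-5p, miR-302b-5p, miR-367-3p and miR-367-5p, and the shPerk library differed from it in the place of miR-302a-5p, which came after miR-302a-3p. Without replicates it cannot be said which neighbours differ beyond the spread between cultures.

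The depth behind these values was read from their spacing. In each library the step was chosen that made the most values whole multiples of it. Of the values above 0, 92.3% in the shNC and 92.8% in the shPerk library were whole multiples of 1 step within rounding, a tolerance of 0.0396 and 0.0223 reads. Values spread at random would be whole in 7.92% and 4.46% of cases. With this step, 1 RPM corresponds to 7.92 reads in the shNC library and 4.46 reads in the shPerk library. All 10 members were within 0.05 reads of a whole number in both. Counted in this way, miR-302b-3p had about 605753 reads in the shNC and 805888 in the shPerk library, miR-367-3p had 1023 and 1199, and miR-367-5p had 8 and 13. Intervals given below are 95% exact binomial intervals on these implied reads, and they hold counting error alone. Reads copied by PCR are not independent, so the intervals may be too narrow even for counting error.

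In the comparison of shPerk with shNC cells, which asks how knocking down PERK affects miRNAs in embryonal carcinoma cells, all 5 3p arms were higher in the shPerk library on every scale. On the deposited RPM scale the fold was 3.09 for miR-302a-3p, 3.07 for miR-302d-3p, 2.36 for miR-302b-3p, 2.36 for miR-302c-3p and 2.08 for miR-367-3p. The deposited values are shares of a fixed total, so a larger share of the cluster lowers the values of all other miRNAs. The other 686 miRNAs together had 829254 RPM in the shNC library and 571502 RPM in the shPerk library, and their median log2 fold change was -0.66. Scaling to the total without the cluster moved that median to -0.12. Scaling by TMM (trimmed mean of M values, which sets the bulk of miRNAs level between libraries) moved it to -0.05, a shift of 0.60 that applies to every miRNA, so log2 fold changes on the TMM scale are 0.60 above those of the deposited scale.

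**Figure D2:**
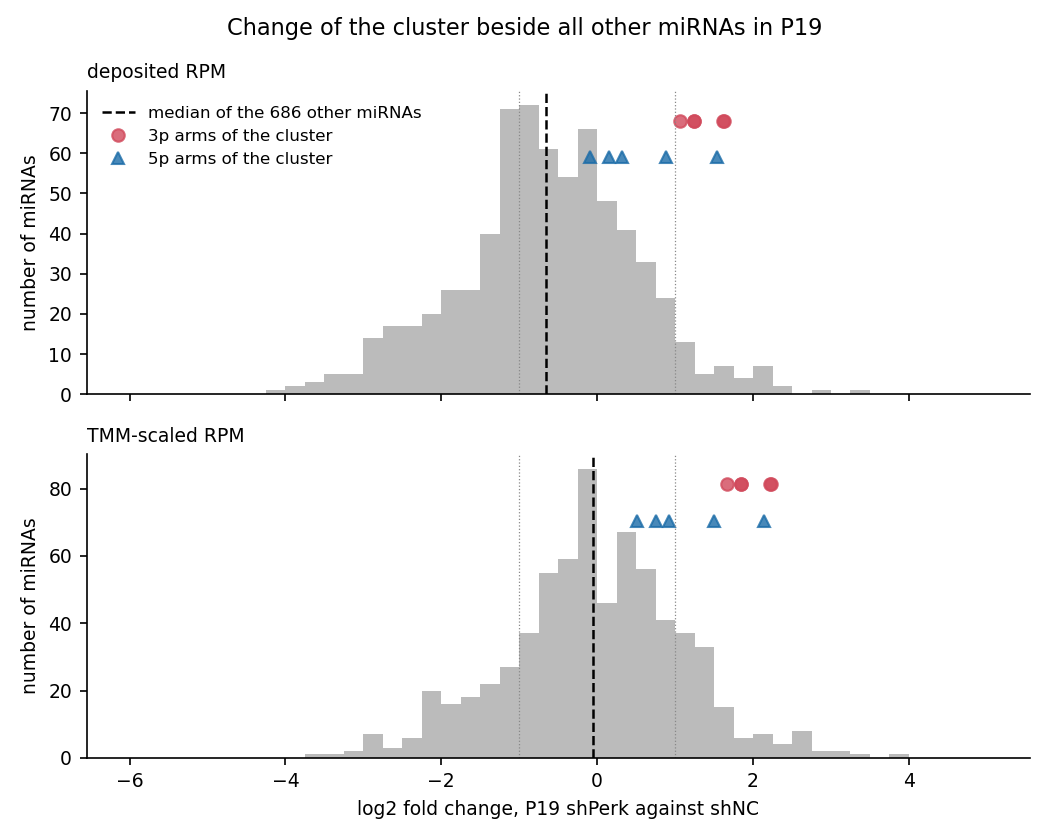
Histograms of the log2 fold change of shPerk against shNC in P19 cells for the 686 miRNAs outside the cluster, on the deposited RPM scale (top) and the TMM scale (bottom), with the 5 3p arms (circles) and 5 5p arms (triangles) of the cluster above them at arbitrary height, the median of the other miRNAs as a dashed line and dotted lines at -1 and 1. The median of the other miRNAs lay at -0.66 on the deposited and at -0.05 on the TMM scale, and all 3p arms lay beyond 1 on both.

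On the TMM scale the summed cluster had a log2 fold change of 1.93 (interval 1.93 to 1.94), against 1.33 on the deposited scale. A miRNA was counted as higher when its log2 fold change was above 1, and 7 of the 10 members were, namely the 5 3p arms, miR-302a-5p and miR-367-5p. The interval of miR-367-5p (0.75 to 3.61) includes the limit of 1. The members are cut from a common primary transcript, so they are not separate observations. Of all 696 miRNAs, 123 were higher by this limit, which is 17.7%. On the deposited scale 6 members were higher, without miR-302a-5p, against 46 of all miRNAs or 6.61%. No member was lower by more than 1 on either scale, where 17.7% of all miRNAs were on the TMM scale and 35.5% on the deposited scale. The count of members was 7 also with median of ratios (18.1% of all miRNAs higher), upper quartile (14.2%), TMM factors computed without the members (19%) or without the members and the miRNAs of their seeds (18.1%), and the total without the members (16.1%). At a limit of 1.5-fold 9 members were higher, against 28.6% of all miRNAs, and among the 489 miRNAs that averaged 10 RPM or more 6 members were higher, against 14.7%. The median log2 fold change of the members was 1.75 and that of all 696 miRNAs was -0.04 on the TMM scale. The 3p arms had a median of 1.85 and the 5p arms of 0.92.

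miR-302a-3p had a log2 fold change of 2.23 on the TMM scale (interval 2.22 to 2.24) and miR-302d-3p of 2.22 (interval 2.22 to 2.23). miR-302b-3p had 1.85 (interval 1.84 to 1.85) and miR-302c-3p had 1.84 (interval 1.82 to 1.86). These intervals hold counting error alone, so they do not show that the 3p arms differ from each other beyond the spread between cultures. miR-367-3p had 1.66 (interval 1.54 to 1.78), below all 4 miR-302 3p arms. With both arms of a hairpin summed, the log2 fold change on the TMM scale was 1.84 for miR-302b, 1.62 for miR-302c, 1.83 for miR-302a, 2.21 for miR-302d and 1.67 for miR-367, in the order of the hairpins along the chromosome.

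The 5p arms differed less between the libraries. miR-302a-5p, the only 5p arm of the cluster among the 10 highest miRNAs of either library, had a log2 fold change of 1.49 on the TMM scale (interval 1.48 to 1.502) and 0.89 on the deposited scale. miR-302b-5p had 0.92 (interval 0.83 to 1.01), miR-302d-5p 0.75 (interval 0.69 to 0.82) and miR-302c-5p 0.51 (interval 0.47 to 0.56), all under the limit of 1. Their direction was not the same on all scales for miR-302c-5p, which had -0.09 on the deposited scale. Together, these 3 arms and miR-367-5p had 2324 RPM in the shNC library and 2383 RPM in the shPerk library. miR-367-5p had 2.14, but with 8 and 13 implied reads its interval ran from 0.75 to 3.61.

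The composition of the cluster also differed between the libraries in a way that no scaling can alter. Among the 5 3p arms, miR-302b-3p took 54.3% of the reads in shNC cells and 48.1% in shPerk cells, and miR-302d-3p took 29.9% and 34.4%. miR-302a-3p took 12.6% and 14.6%, miR-302c-3p 3.19% and 2.83%, and miR-367-3p 0.0917% and 0.0716%. The ratio of the 3p to the 5p arm was higher in the shPerk library for all 4 miR-302 hairpins. For miR-302a it was 0.652 in shNC and 1.09 in shPerk cells, so the arm with more reads was 5p in the shNC and 3p in the shPerk library. For miR-302b it was 253 and 482, for miR-302c 3.26 and 8.20, and for miR-302d 65.8 and 182.02. On the log2 scale these ratios differed by 0.74 (interval 0.73 to 0.75) for miR-302a, 0.93 (0.84 to 1.02) for miR-302b, 1.33 (1.28 to 1.38) for miR-302c and 1.47 (1.40 to 1.53) for miR-302d, here with a normal approximation on the log ratio of the implied reads. For miR-367 the ratio was 128 and 92.1, a log2 difference of -0.47 whose interval (-1.75 to 0.80) includes 0 because its 5p arm had so few reads.

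A higher ratio of 3p to 5p arm was not general in the shPerk library. Of 201 hairpin stems with both arms at or above 1 RPM in both libraries, 86 or 42.8% had a higher ratio there, and 30 or 14.9% had a ratio higher by at least 0.74, the smallest difference among the miR-302 stems, which are included in both counts. The 196 stems outside the cluster had a median log2 difference of -0.16, with quartiles of -0.83 and 0.45. With both arms required to reach 10 RPM, the corresponding shares were 44.4% and 16.1% of 124 stems. The 6 stems of the miR-290 to miR-295 cluster, set apart after the values were seen, all had a higher ratio in the shPerk library, with log2 differences from 0.57 for miR-295 to 2.10 for miR-294. The 190 stems of neither cluster had a median of -0.19, and 76 of them had a higher ratio.

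**Figure D3:**
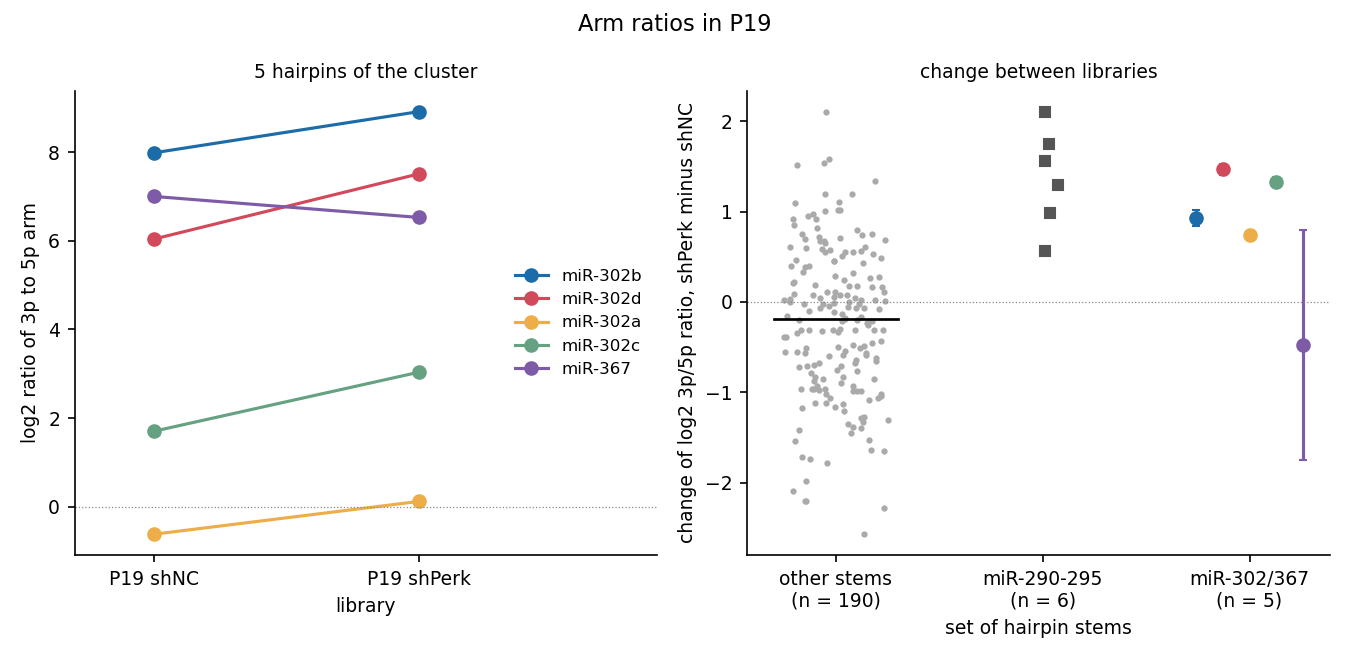
Left, log2 ratio of the 3p to the 5p arm of each of the 5 hairpins in the P19 shNC and shPerk libraries. Right, the difference of that log2 ratio between the libraries for 190 other stems (grey points, the line is their median), 6 stems of the miR-290 to miR-295 cluster (squares) and the 5 stems of the cluster (circles with 95% counting intervals), where the 4 miR-302 stems lie between 0.74 and 1.47 and miR-367 at -0.47.

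Other miRNAs with the same seeds were compared to see whether the difference was shared by the seed family. The seed AAGUGCU is also carried by miR-291a-3p, miR-294-3p and miR-295-3p of the miR-290 to miR-295 cluster. miR-295-3p had 20160 RPM in shNC and 18752 RPM in shPerk cells, and its log2 fold change was 0.50 on the TMM scale. miR-294-3p had 8488 and 9272 RPM, or 0.73, and miR-291a-3p had 7146 and 10312 RPM, or 1.13. On the deposited scale these 3 values were -0.10, 0.13 and 0.53. All were smaller than those of the miR-302 3p arms on the same scale. Seeds were known only for the 573 of the 696 P19 miRNAs with a matched sequence, so all sums by seed hold matched miRNAs alone. Of the matched reads with this seed, miR-302b-3p and miR-302d-3p made up 76.8% in shNC cells and 89.0% in shPerk cells. Matched miRNAs with this seed took 15.4% and 34.8% of the libraries. miR-302a-3p, at 17713 and 54730 RPM, had no matched sequence and is not included, so the totals for the seed may be too low.

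The seed of miR-367-3p, AUUGCAC, is shared by miR-25-3p, miR-32-5p, miR-92a-3p, miR-92b-3p and miR-363-3p, which are not of this cluster. miR-92a-3p had 41884 RPM in shNC and 15926 RPM in shPerk cells, and its log2 fold change was -0.79 on the TMM scale. miR-363-3p had 13889 and 10863 RPM and miR-25-3p had 11803 and 8303 RPM, with log2 fold changes of 0.25 and 0.10 that were -0.35 and -0.51 on the deposited scale. miR-367-3p was 0.185% of the reads with this seed in shNC and 0.733% in shPerk cells, so the total for the seed followed the other family members, at 6.97% and 3.67% of the libraries. Of the 8 miRNAs that share a seed with a 3p arm, 2 were higher by the limit of 1 on the TMM scale, miR-291a-3p and miR-32-5p (the latter named after its values were seen), and none was lower. On the deposited scale neither was higher, at 0.53 and 0.43, and miR-92a-3p was lower by the limit, at -1.40. Among all 696 miRNAs, 17.7% were higher and 17.7% lower on the TMM scale, and 6.61% and 35.5% on the deposited scale. The median of the 8 was 0.38 on the TMM scale, against -0.04 for all miRNAs, and it was -0.23 on the deposited scale.

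The labelled cell types were checked by marker miRNAs. The 12 arms of the miR-290 to miR-295 list, typical of embryonic stem and embryonal carcinoma cells, summed to 167091 RPM in P19 shNC and 134680 RPM in P19 shPerk cells, and to at most 1.502 CPM (counts-per-million) in a C2C12 hairpin library. Of these arms, 2 were higher and 2 were lower by the limit of 1 on the TMM scale, with a median log2 fold change of 0.08, and on the deposited scale 0 were higher and 4 were lower. The myoblast list of miR-1a-3p, miR-133a-3p, miR-133b-3p and miR-206-3p summed to 3839 to 88480 CPM in the C2C12 libraries and to 34.5 and 96.9 RPM in P19 shNC and shPerk cells, where miR-206-3p was not listed and the other 3 were higher by the limit of 1 on the TMM scale and 2 of them on the deposited scale. Among these 3, miR-133b-3p had 1.14 RPM in shNC and 1.79 RPM in shPerk cells. Both values are close to the limit of 1 RPM under which values were listed at 0. Its log2 fold change was 1.26 on the TMM scale and 0.65 on the deposited scale, so its call depends on the scaling. Markers of other cell types also differed between the P19 libraries. Of the 5 neuronal miRNAs 4 were listed, and they summed to 3685 RPM in shNC and 1523 RPM in shPerk cells. miR-124-3p, the main miRNA of neurons, had 198 and 29.6 RPM, and miR-9-5p had 3359 and 1429 RPM. miR-137-3p was not listed and miR-153-3p was listed at 0 in shNC cells and had 5.38 RPM in shPerk cells. miR-9-3p had 129 and 59.2 RPM. On the TMM scale 1 of the 4 was higher and 1 was lower, and on the deposited scale 1 was higher and 3 were lower. The 4 miRNAs of mesenchyme and smooth muscle summed to 112 and 251 RPM, with 2 higher and 0 lower on the TMM scale and 1 higher and 0 lower on the deposited scale, and miR-214-3p was listed at 0 in shNC cells. Of all 696 miRNAs, 17.7% were higher and 17.7% lower on the TMM scale, and 6.61% and 35.5% on the deposited scale. The neuronal list was not particular to P19. At day 0 its 5 miRNAs summed to 193 CPM in C2C12 shNC and 2784 CPM in C2C12 shPerk cells. At day 3 they summed to 588 and 4220 CPM in the same order. The list of mesenchyme and smooth muscle summed to 59894 to 91223 CPM in the C2C12 hairpin libraries. In these bulk libraries a different share of cells of a type and a different amount of RNA in each cell cannot be told apart, and the part of these lists in the difference of the cluster was not tested.

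In C2C12 cells, a single read of the cluster was found. The 4 hairpin libraries held between 8800977 and 11993448 miRNA reads. miR-302b-3p had 1 read in shNC cells at day 3 (95% exact Poisson interval 0.0253 to 5.57 reads), which is 0.0834 CPM. The same miRNA had 0 reads in shNC cells at day 0 and in shPerk cells at day 0 and day 3, and the other 9 members had 0 reads in all 4 libraries. None of the 10 reached 1 CPM in any of them, where of the 1978 listed miRNAs 28.9% did in shNC and 27.9% in shPerk cells at day 0, and 27.3% and 26.1% at day 3. In the P19 shNC library all 10 members were at or above 1 RPM, as were 34.7% of the same 1978 miRNAs. The limit that a count of 0 allows was set at 3 reads throughout, the upper limit on its own at 95% confidence, which is lower than the upper end of the interval with both ends for a count of 0 (3.69 reads). The limit of 3 reads is 0.265 CPM in shNC and 0.341 CPM in shPerk cells at day 0, and 0.250 and 0.318 CPM at day 3. No difference between shNC and shPerk myoblasts was detectable for the cluster at this depth, at either day. A single read is also common in these tables, as 152 to 172 miRNAs had exactly 1 read in each library.

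Against the limit of 3 reads in the C2C12 shNC library of day 0, miR-302b-3p was at least 288792-fold higher in P19 shNC cells, miR-302d-3p at least 158836-fold and miR-367-3p at least 488-fold, with the P19 value taken without its own counting error. No bound is given for miR-367-5p, which had 8 implied reads in P19 shNC cells. The P19 and C2C12 tables were normalized separately, by RPM and here by CPM, so these bounds set values of different tables side by side. In the ATF4 experiment none of the 10 members was listed. Each of the 605 miRNAs that are listed there had at least 1.04 RPM in the vector or the ATF4 library, and the level of the cluster in those libraries is not known.

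**Figure D4:**
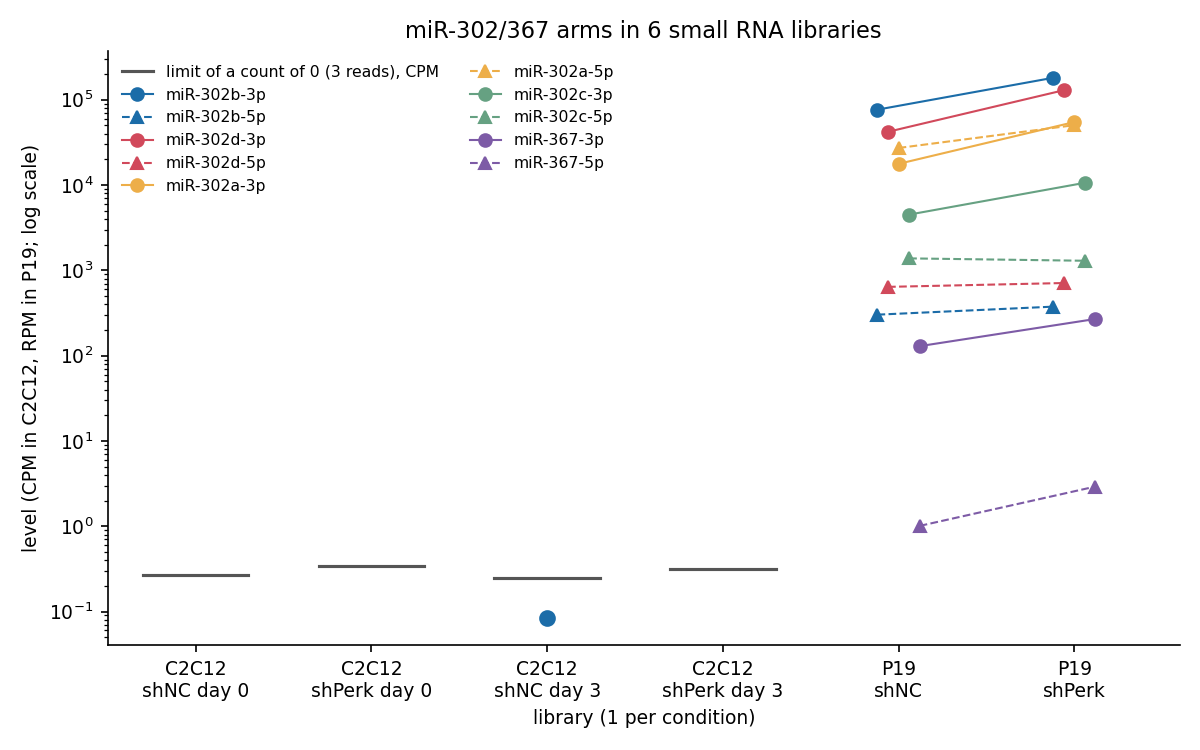
Levels of the 10 arms on a log axis in the 4 C2C12 hairpin libraries (CPM) and the 2 P19 libraries (RPM), with circles for 3p arms, triangles for 5p arms, lines joining the same arm in P19 shNC and shPerk cells, and grey bars for the level that a count of 0 allows in C2C12. The P19 values span from 1.01 RPM for miR-367-5p to 180818 RPM for miR-302b-3p, and the only C2C12 point is the 1 read of miR-302b-3p at day 3 in shNC cells.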

How the data were processed

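The authors had a company (RiboBio) prepare the small RNA libraries and annotate reads with bowtie. The submitters' processing notes name mm10 and GRCm38, and the bowtie version and the miRNA release are not given in the sources used here. The C2C12 hairpin tables, as the authors deposited them, give the number of reads (raw count) of each mature miRNA in 4 libraries. For the P19 and ATF4 pairs the authors deposited RPM values, with values under 1 RPM listed at 0. Their own fold changes, p-values and q-values were not used.

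From these files, TMM factors were computed on the P19 RPM values with edgeR 4.0.16 (R 4.3.3) from all 696 miRNAs, and a listed 0 was set to 1 RPM. Alternatives were no rescaling, median of ratios (DESeq2 1.42.0), upper quartile and scaling without the cluster. With 1 library per condition no test was run. Seeds were read from RefSeq mature sequences, which 573 of the 696 P19 miRNAs matched, and Larp7 from GENCODE on GRCm38. The miRNAs named are the 10 members, at most 4 of each marker list and 3 of each seed by mean P19 value, and the 5 nearest in pattern. Beyond this rule, miR-32-5p and miR-92b-3p were named to complete a seed family, and markers that are not listed or are listed at 0 were named for that. The arm ratios of other stems, those of the miR-290 to miR-295 stems, the share without miR-302b-3p and the implied reads were added after the values were seen. The members and lists were chosen with earlier results of these data known. The fold changes were tested on simulated data with counting noise only, for the P19 comparison with 696 miRNAs of which 200 were changed besides the members. At 10 RPM or more, 100% of 4-fold changes passed the limit and 0% of unchanged miRNAs did. The simulation held no spread between cultures, so these shares do not show how reliable the calls in the P19 libraries are. Plots and intervals used Python 3.11.15, scipy 1.17.1 and matplotlib 3.10.9.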

Additional observations from a re-analysis of the deposited data

How the results depend on the processing

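The number of members higher in P19 shPerk cells, 7 on the TMM scale, lay between 6 and 9 under all alternatives, with 6 on the deposited scale and 9 at a 1.5-fold limit, where 28.6% of all miRNAs were higher. The log2 fold change of the summed cluster, 1.93, was 1.33 with no rescaling, 1.98 with median of ratios, 1.80 with upper quartile, 2.01 with TMM without the members, 1.98 with TMM without the members and the miRNAs of their seeds, 1.87 with the total without the members and 2.02 for the 3p arms alone. Scaling shifts every miRNA by the same amount, and the counts over all miRNAs went from 123 higher and 123 lower with TMM to 46 higher and 247 lower with no rescaling. The share of the libraries was 9.40% and 24.8% without miR-302b-3p. In C2C12, 1 member was present when 1 read was enough, against 0 at 1 CPM, at 0.5 CPM, with more than 3 reads and with TMM library sizes. The median of the miRNAs that share a seed, 0.38, was -0.23 with no rescaling, 0.42 with median of ratios, 0.24 with upper quartile, 0.45 and 0.42 with TMM without the members and without both sets, and 0.31 with the total without the members, so its sign depends on the scaling. Ratios of arms do not depend on it. No paired analysis was possible because each condition has 1 library and the labels give no replicate numbers. The P19 shPerk library was the shallower one, at 4.46 against 7.92 implied reads for 1 RPM, and miR-367-5p, with 8 and 13 implied reads, had the widest interval of the members.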

Other observations

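The miRNAs most like the cluster in pattern were sought among the 696 listed in P19, by the distance between mean-centred log2(value + 1) profiles over 6 libraries, the 4 C2C12 hairpin libraries in CPM and the 2 P19 libraries in RPM. The 5 nearest to the mean profile of the members were miR-434-5p (distance 1.67), miR-291a-5p (1.68), miR-370-3p (1.75), miR-381-3p (1.78) and miR-292a-3p (1.89). All of them were abundant in P19 cells, between 5348 and 10220 RPM in the shNC library, and had at most 7 reads in any C2C12 library. The choice by distance over these same libraries favours such levels, so they are not a separate result. Within P19 4 of the 5 had lower values in the shPerk library on both scales. miR-434-5p had 5348 RPM in shNC and 2061 RPM in shPerk cells, miR-370-3p 6124 and 2202 RPM, and miR-381-3p 10220 and 5968 RPM. miR-291a-5p had 6092 and 2606 RPM. miR-292a-3p, with 6557 and 10145 RPM, was higher in shPerk cells on both. The members themselves lay between 1.27 (miR-302c-5p) and 11.3 (miR-367-5p) from their own mean, because the measure depends on the level in P19.

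In the miR-290 to miR-295 cluster, the 5p arms were lower in the shPerk library on the deposited scale, and the 3p arms less so or not. miR-290a-5p had 2860 RPM in shNC and 742 RPM in shPerk cells, and miR-290a-3p had 33.1 and 25.4 RPM. miR-294-5p had 457 and 116 RPM, where miR-294-3p had 8488 and 9272 RPM. The ratio of 3p to 5p of miR-291a was 1.17 and 3.96, and that of miR-292a, whose 5p arm had more reads, was 0.0896 and 0.220. With 1 library for each condition it was not tested whether these differences exceed those between cultures.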
